A study of Homo sapiens with 10 samples.

Results

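The mitochondrial ribosomal proteins are the nuclear-encoded protein subunits of the ribosome inside mitochondria. Their mRNAs were chosen by symbol alone, as every gene named MRPL or MRPS followed by digits and an optional letter, a rule that reads no measured value. The rule found 78 of the 39472 gene symbols counted, 49 with an MRPL symbol (named for the large subunit) and 29 with an MRPS symbol (named for the small subunit). The groups follow the symbol alone, and the place of each protein in the ribosome was not checked. Later nomenclature names MRPS36 as a subunit of the oxoglutarate dehydrogenase complex. RNA crosslinked to FLAG-tagged eIF4A was sequenced by eCLIP (enhanced crosslinking and immunoprecipitation) from HEK 293T cells, an established human embryonic kidney line, so that the protein bound was a tagged one and not the cells' own. The groups were 3 libraries after 20 nM silvestrol, 3 after 20 nM CR-1-31-B and 3 after vehicle (DMSO), all recovered with an anti-FLAG antibody, and 1 input library taken with no antibody. Exposure lasted 1 h before ultraviolet light in the 3 anti-FLAG groups, and the labels name no treatment for the input library. RNA abundance was not measured separately for each treatment, so binding per mRNA and amount of mRNA cannot be told apart.

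The mitochondrial ribosome makes the hydrophobic core subunits of the respiratory chain and of ATP synthase, which are encoded by mitochondrial DNA. All of its proteins are encoded in the nucleus, translated on cytosolic ribosomes by the usual initiation factors and imported. eIF4A is the RNA helicase of the cap-binding complex that clears the 5' leader for the small ribosomal subunit. Rocaglates, the class to which silvestrol and CR-1-31-B belong, hold eIF4A on RNA and are known to prefer runs of purines (A and G). Since that preference concerns the leader, 30 bases at or near the 5' start are shown for leaders whose counts were highest or lowest after rocaglates relative to DMSO, from the RefSeq annotation of GRCh38.p14. Capitals mark the longest purine run within the first 50 bases after the start. Where runs were equally long, as in MRPL18, the earliest is marked.
MRPL42, chr12:93467529-93467558, plus strand: cgggttcgtggtGAGAAGccgtcaaggtaa
MRPL18, chr6:159790467-159790496, plus strand: GAGAGtttggggatctacagcagccaaagg
MRPL33, chr2:27771720-27771749, plus strand: gttgttgttggttGGGGGccttttggccgg
MRPL16, chr11:59810729-59810758, minus strand: gagccgattacagctaggtagtGGAGcgcc
MRPL34, chr19:17305653-17305682, plus strand: AGAAGGcgccgttcgccggctacctgttgg
MRPL20, chr1:1407262-1407291, minus strand: ttccgacccgggcAAGAtggcagcggcgct
MRPL4, chr19:10251951-10251980, plus strand: gtcGGAGGcgggacccaaagtaggctaggc

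The first 4 belong to leaders with high fold changes, and their longest purine runs are 6, 5, 5 and 4 bases. The last 3 belong to leaders with low fold changes, and their runs are 6, 4 and 5 bases, so the run lengths of these sets overlap. RefSeq lists 3 starts for MRPL18, 4 for MRPL34 and 2 for MRPL4, and the start nearest to the GENCODE v29 principal transcript was used. Across the 69 members with a start window, 20 (28.99%) held a purine run of at least 6 bases, against 43.09% of 14863 genes with a window. The median purine content was 52% and the median longest run 5 bases in both sets. The letters GAGAGA on the transcript strand occurred in 0 member windows, against 2.415% of all windows, and AGAGAG, which can overlap it, in 1 (1.449%) against 2.503%. A C followed by at least 4 pyrimidines at the start itself, the form of a 5' terminal oligopyrimidine tract, was present in 4 members (5.797%) and in 4.696% of all genes. These are matches of letters and not measured sites.

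The leaders of these mRNAs are also short. In GENCODE v29 the principal leaders had a median length of 100.5 nucleotides over the 78 members, against 174 over 19614 genes, and the coding sequences (CDS) 585 against 1275. The 35 members whose leader held enough counts for a test had a median leader of 161 nucleotides, and the 43 others one of 46.

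Counts per library totalled 858733 to 1804732 in the 9 anti-FLAG libraries and 2193699 in the input. Between libraries of 1 group the counts differed by more than counting noise, with a chi-square per degree of freedom of 3.97 to 9.07, so each was kept as a replicate. The labels do not say whether replicates were separate cultures, and all p-values measure the spread between these libraries. Of the HEK 293T markers listed, VIM, KRT8, KRT18, NEFL, NEFM, PAX2 and EYA1 were counted in every library, NEFM with only 1 count in CR-1-31-B library 3. LHX1 was not, with 1, 0 and 3 counts in CR-1-31-B libraries 1 to 3. ALB, PTPRC, HBB and COL1A2 held 0 to 2 counts each. COL1A1, listed as a fibroblast marker, held 24 to 143 counts and MLANA, a melanocyte marker, 1 to 19. The part of these genes in any result was not tested. EIF4A1 held 0 leader, CDS and 3'UTR counts in every library, and EIF4A2 31 to 167. The cause was not tested.

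The members together took 0.351% ± 0.0722 of all counts after silvestrol, 0.381% ± 0.0691 after CR-1-31-B and 0.385% ± 0.056 after DMSO (SD, n = 3 each), against 0.188% in the input. The treatments overlapped, and all 9 anti-FLAG libraries lay above the input. In CPM, counts scaled to equal library totals, member leaders summed to 1330, 778 and 802 CPM in silvestrol libraries 1 to 3, to 1267, 1042 and 708 CPM in CR-1-31-B libraries and to 1002, 764 and 594 CPM in DMSO libraries. The input leaders summed to 132 CPM. The groups overlapped, and within each treatment library 1 held the most leader CPM. In all 6 same-number pairs the leader sum was higher in the rocaglate library than in the DMSO library. Member CDS summed to 2374, 1434 and 1696 CPM after silvestrol, 2617, 2005 and 1575 CPM after CR-1-31-B and 2555, 2133 and 1805 CPM after DMSO, with 984 CPM in the input. The 3'UTRs summed to 674 ± 78.8 CPM after silvestrol, 703 ± 257 CPM after CR-1-31-B and 861 ± 191 CPM after DMSO (SD, n = 3 each), with 740 CPM in the input. With counts of the 3 mRNA parts alone as the total, the order of DMSO and input turned for 3'UTRs, which averaged 1058 CPM in DMSO libraries and 1265 CPM in the input, while CDS averaged 2654 CPM and 1683 CPM in the same order.

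**Figure D1:**
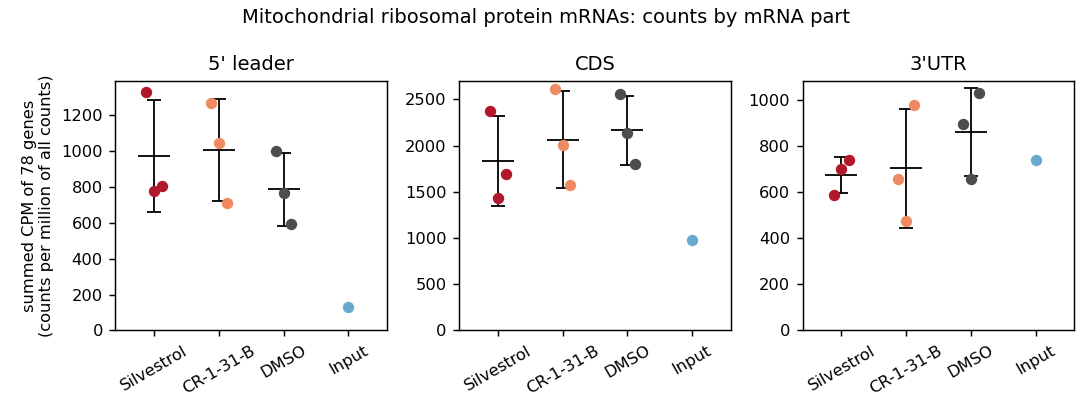
Summed CPM of the 78 mitochondrial ribosomal protein genes in their 5' leaders, CDS and 3'UTRs, with a point for each library, a bar for the group mean and whiskers for 1 SD; the input is a single library. Anti-FLAG leaders lie between 594 and 1330 CPM against 132 CPM in the input, while the treatments overlap in all panels.

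Leaders made up a larger part of the members' own counts after rocaglates. Of their leader, CDS and 3'UTR counts, 31.0%, 26.7% and 24.8% lay in leaders in silvestrol libraries 1 to 3. The share was 27.9%, 29.6% and 21.7% in CR-1-31-B libraries and 22.5%, 21.5% and 17.3% in DMSO libraries. All silvestrol libraries stood above all DMSO libraries, and CR-1-31-B library 3 lay inside the DMSO range. In all 6 same-number pairs the rocaglate library had the higher share, which was also so over all genes and over cytosolic ribosomal protein genes. The input share was 7.12% (290 of 4072 counts, 95% exact Clopper-Pearson interval 6.35% to 7.96%, counting error only). Over all genes the leader share was 37.9% ± 2.17 after silvestrol, 36.2% ± 6.40 after CR-1-31-B and 27.9% ± 2.07 after DMSO (SD, n = 3 each), with 12.9% in the input, so the members followed the direction of the whole data set at a lower level. Cytosolic ribosomal protein genes (86 symbols) held 36.9% ± 2.98, 34.8% ± 4.74 and 31.3% ± 4.35 in the same order of treatments, with 9.45% in the input. The order was the same for MRPL and for MRPS symbols. Leaders took 28% ± 3.15, 26.8% ± 3.82 and 21.5% ± 2.68 of MRPL counts, and 26.6% ± 5.23, 25.6% ± 4.75 and 18.7% ± 2.93 of MRPS counts, after silvestrol, CR-1-31-B and DMSO (SD, n = 3 each). No test was made of these sums over chosen genes.

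More counts in the leader than in the CDS of the same gene, not scaled by length, were seen in 14, 18 and 14 members in silvestrol libraries 1 to 3, in 16, 16 and 14 in CR-1-31-B libraries, in 11, 14 and 8 in DMSO libraries and in 2 in the input. Only MRPS16 and MRPS21, small-subunit proteins with bacterial counterparts, showed this in all 9 anti-FLAG libraries. In all 3 silvestrol libraries 7 members did (MRPL16, MRPL24, MRPL33, MRPL41, MRPS5, MRPS16 and MRPS21), in all 3 CR-1-31-B libraries 9 (MRPL16, MRPL33, MRPL40, MRPL41, MRPL42, MRPS5, MRPS12, MRPS16 and MRPS21) and in all 3 DMSO libraries 5 (MRPL40, MRPL55, MRPS16, MRPS21 and MRPS33). Such a count was not made over all genes. There too the mean leader share was higher after rocaglates than after DMSO and lowest in the input. Whether these numbers set the members apart was not tested. The GENCODE principal leader is longer than the CDS in 8 of the 78 members, among them MRPL40, MRPL41, MRPL55, MRPS12 and MRPS21 (447 against 261 nucleotides), whereas that of MRPS16 is shorter (211 against 411 nucleotides). These lengths depend on the annotation. The only RefSeq start of MRPL40 lies 643 bases downstream of the GENCODE start, and that of MRPL41 680 bases. Most of the GENCODE leader of these genes thus lies before the RefSeq start.

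The DMSO libraries were compared with the input to describe which member mRNAs were recovered with the antibody in the absence of drug. The groups held no anti-FLAG library from untagged cells, so recovery apart from eIF4A was not measured. Leaders and coding sequences of members were richer in DMSO libraries than in the input, and 3'UTRs less so. Among members with at least 10 counts in these 4 libraries, 26 of 49 leaders were at least 2-fold higher in all 3 DMSO libraries than in the input, a share of 53.1%, where 42.3% of all leaders and 64 of 80 cytosolic ribosomal protein leaders (80%) were. For the CDS it was 19 of 77 members (24.7%), where 5.73% of all CDS and 0 of 80 cytosolic ribosomal protein CDS were. For the 3'UTR only MRPS35, with 1 of 51 members, passed, where 3.36% of all 3'UTRs did. No member feature was 2-fold lower in all 3 DMSO libraries, where 0.56% of all leaders, 3.05% of all CDS and 2.16% of all 3'UTRs were. With a single input library there is no test, and the differences below have no replicate check on the input side.

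The median log2 ratio of DMSO over input was 2.87 over 40 member leaders with an input count, against 1.81 over all leaders and 2.68 over cytosolic ribosomal protein leaders. Over 77 member CDS it was 1.04, against 0.05 over all CDS and 0.26 over cytosolic ribosomal protein CDS. Over 51 member 3'UTRs it was 0.31, against 0.14 over all 3'UTRs. The counts depended on the scale, on the minimum of counts and on the libraries used. With a minimum of 30 counts, 21 of 26 member leaders (80.8%) passed. At that minimum 63 of 74 cytosolic ribosomal protein leaders (85.1%) and 3563 of 6353 leaders over all genes did. With counts of the 3 mRNA parts alone as the total, 12 of 77 member CDS passed, where 289 of 12413 CDS over all genes did. On that scale 19 of 49 member leaders passed, where 2909 of 9995 leaders over all genes did. Without DMSO library 3, 30 of 77 member CDS passed, where 1178 of 11950 CDS did.

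**Figure D2:**
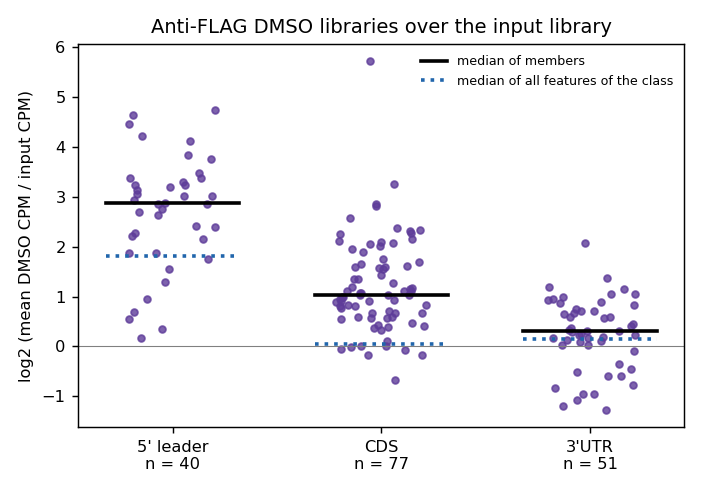
Log2 ratio of mean DMSO CPM to input CPM for each mitochondrial ribosomal protein leader, CDS and 3'UTR with at least 10 counts in the 4 libraries and an input count above 0; solid lines are member medians and dotted lines the medians of all features of that class. The member medians are 2.87, 1.04 and 0.31, and the dotted lines stand at 1.81, 0.05 and 0.14.

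The highest leader ratios were those of MRPS26, MRPL38 and MRPS5. The MRPS26 leader had 4.67, 15.8 and 15.9 CPM in DMSO libraries 1 to 3 and 1 count (0.456 CPM) in the input, a ratio of 26.6 with a counting interval of 4.78 to 1051. The MRPL38 leader had 14.9, 7.44 and 11.7 CPM in DMSO libraries and also 1 count in the input, a ratio of 24.9 (interval 4.47 to 983). MRPS5, a small-subunit protein with a bacterial counterpart, is better counted, with leader values of 54.1, 43.7 and 23.3 CPM in DMSO libraries and 1.82 CPM (4 counts) in the input. Its ratio was 22.2 (interval 8.65 to 81.3), and every DMSO library stood far above the input. At the other end, the MRPL42 leader had 4.67, 0.931 and 2.12 CPM in DMSO libraries against 2.28 CPM in the input. The MRPS11 and MRPL53 leaders had log2 ratios of 0.34 and 0.55.

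Among coding sequences the highest ratio was that of MRPS24, with 28, 27 and 17 CPM in DMSO libraries and 1 count in the input, a ratio of 52.6 (interval 9.44 to 2078). The rule for reads shared with near-identical copies was not given in the sources used here, and the part of such reads in this value was not tested. MRPL15, a large-subunit protein with a bacterial counterpart, followed with 57.9, 11.2 and 36.0 CPM in DMSO libraries against 3.65 CPM in the input. The MRPL20 CDS, of a protein that in bacteria helps the large subunit to assemble, had 50.4, 33.5 and 25.4 CPM in DMSO libraries against 5.01 CPM. The lowest were MRPL45, with 1.87, 0 and 12.7 CPM in DMSO libraries against 7.75 CPM in the input, then MRPL42 and MRPL46, with log2 ratios of -0.17 each. MRPL45, which lines the exit of the peptide tunnel next to the inner membrane, was uneven between its DMSO libraries, and DMSO library 3 alone lay above the input.

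For the comparison of rocaglates with DMSO, 127 member features held enough counts, namely 35 leaders, 64 CDS and 28 3'UTRs. The lowest leader tested held 69 counts over the 9 anti-FLAG libraries and the highest leader not tested 65. Of the leaders not tested, 2 held no anti-FLAG count, and 8 members (MRPL1, MRPL23, MRPL45, MRPL47, MRPS6, MRPS18C, MRPS31 and MRPS36) had no part tested. The features tested are therefore the well-counted ones and not all members.

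No member feature passed an adjusted p of 0.05 in edgeR's quasi-likelihood test without a replicate term, with adjustment over 24713 features. That held for silvestrol against DMSO, where 0.255% of all features passed, for CR-1-31-B against DMSO, where 0.291% did, and for both rocaglates together, where 0.49% did. At an unadjusted p under 0.05, 7 of 35 member leaders were higher after silvestrol, where 16.6% of all leaders were, and 1 was lower, where 0.927% were. After CR-1-31-B 6 leaders were higher, where 15.4% of all leaders were, and 1 was lower, where 1.26% were. For the CDS the counts were 2 higher (2.92% of all CDS) and 5 lower (2.6%) of 64 after silvestrol, and 2 higher (5.38%) and 2 lower (2.34%) after CR-1-31-B. For the 3'UTR 1 of 28 was lower (2.82% of all 3'UTRs) and 0 higher (0.358%) after silvestrol, and 0 were lower (3.38%) or higher (0.477%) after CR-1-31-B. DESeq2 and edgeR with the replicate number as a block each called at most 1 member leader and 1 member CDS higher in a contrast with DMSO, and DESeq2 called 1 member CDS lower for both rocaglates. The share of all features that DESeq2 called is not given here, so its member calls cannot be set against it. With the block 0 member features were called for silvestrol against DMSO, where 1.28% of all features were. For CR-1-31-B against DMSO the MRPL16 leader and the MRPL3 CDS were called, where 1.48% of all features were. For both rocaglates the MRPL16 leader was, where 2.04% were.

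Without a test, all 3 silvestrol libraries stood above all 3 DMSO libraries in 6 member leaders (19% of all leaders) and below them in 2 (2.16%). The CR-1-31-B libraries stood above in 7 leaders (15.9%) and below in 2 (2.81%). In the CDS, 2 members were above (4.84%) and 6 below (8.64%) after silvestrol, and 2 above (8.4%) and 6 below (7.38%) after CR-1-31-B. In the 3'UTR, 0 were above (1.55%) and 4 below (10.9%) after silvestrol, and 0 above (1.46%) and 4 below (9.59%) after CR-1-31-B.

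Member leaders had medians above 0 and their other parts medians below 0 after each drug, except that the leader medians fell below 0 when libraries were scaled within each mRNA part. Over the 35 leaders the median log2 change was 0.43 for silvestrol against DMSO, with 25 above 0, where the median of all 7122 leaders was 0.40. For CR-1-31-B against DMSO it was 0.12, with 22 above 0, where the median of all leaders was 0.35. With TMM factors (edgeR's trimmed-mean library scaling) computed within each class the member medians became -0.06 and -0.23 and those of all leaders -0.04 and -0.05. The medians also rested in part on library 1 of each drug: when silvestrol library 1 was left out the member median was 0.04 for silvestrol (0.32 over all leaders), and leaving out CR-1-31-B library 1 gave 0.02 for CR-1-31-B (0.30 over all leaders). Without silvestrol library 2 the silvestrol median was 0.67 (0.39 over all leaders), and without CR-1-31-B library 2 or 3 the CR-1-31-B median was 0.20 or 0.38 (0.26 or 0.49 over all leaders). Without DMSO library 1 the member medians were 0.81 for silvestrol (0.46 over all leaders) and 0.55 for CR-1-31-B (0.42 over all leaders), and without DMSO library 3 the CR-1-31-B median was 0.06 (0.32 over all leaders). Member CDS had medians of -0.26 for silvestrol and -0.28 for CR-1-31-B, against -0.12 and -0.03 over all CDS, and kept the sign with factors within class (-0.16 and -0.26). Leaving out a library gave CDS medians of -0.52 (without silvestrol library 1) to -0.12 (without DMSO library 1) for silvestrol, and of -0.55 (without CR-1-31-B library 1) to -0.08 (without CR-1-31-B library 3) for CR-1-31-B. Member 3'UTRs had medians of -0.44 and -0.24, against -0.26 and -0.27 over all 3'UTRs, and with factors within class -0.16 and 0.00. Leaving out a library gave 3'UTR medians of -0.53 (without silvestrol library 3) to -0.05 (without DMSO library 3) for silvestrol, and of -0.71 (without CR-1-31-B library 3) to -0.15 (without DMSO library 3) for CR-1-31-B. The cytosolic ribosomal protein leaders had medians of -0.05 and -0.21. The drug comparisons share the DMSO libraries.

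**Figure D3:**
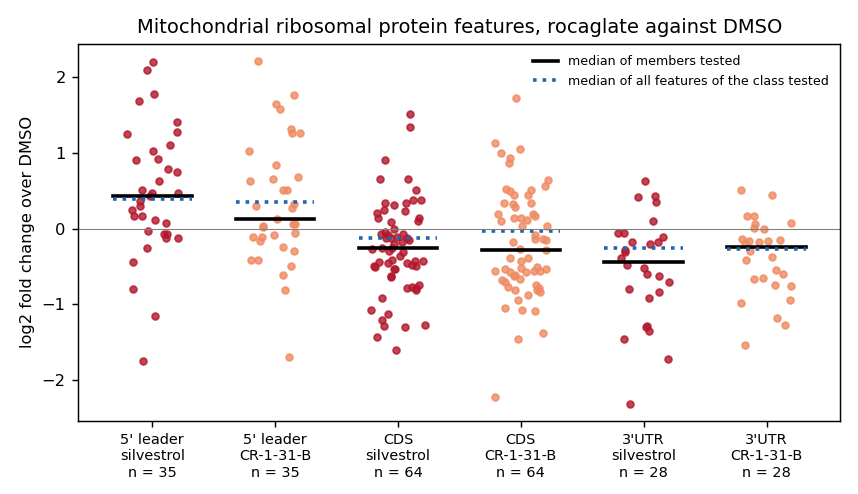
Log2 fold change of silvestrol or CR-1-31-B over DMSO for each mitochondrial ribosomal protein feature tested, by mRNA part; solid lines are member medians and dotted lines the medians of all features of that part. Leaders centre on 0.43 after silvestrol and 0.12 after CR-1-31-B, and both CDS and 3'UTR medians lie below 0; with scaling within each part the leader medians are -0.06 and -0.23.

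By symbol prefix, the 10 MRPS leaders had a median of 0.30 for both rocaglates against DMSO with 9 above 0, and the 25 MRPL leaders one of 0.33 with 14 above 0. The median of all leaders was 0.36, with 69.8% above 0. The 23 MRPS CDS had a median of -0.47 with 7 above 0, and the 41 MRPL CDS one of -0.16 with 16 above 0. The median of all CDS was -0.09, with 43.3% above 0. The difference between the MRPS and MRPL groups was not tested.

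In 3 member leaders (MRPL16, MRPL18 and MRPL33) all 6 rocaglate libraries stood above all 3 DMSO libraries, where 8.4% of all leaders did so. MRPL16 is a large-subunit protein whose bacterial counterpart sits near the tRNA binding sites. Its leader had 71.1, 59.1 and 43.3 CPM in silvestrol libraries 1 to 3, 109, 109 and 55.6 CPM in CR-1-31-B libraries and 29.4, 31.8 and 19.5 CPM in DMSO libraries, scaled here and below by TMM. Every rocaglate library was above the highest DMSO library. The log2 fold change was 1.11 ± 0.41 for silvestrol (SE, edgeR adjusted p = 0.391), 1.76 ± 0.41 for CR-1-31-B (adjusted p = 0.0594) and 1.43 ± 0.37 for both (adjusted p = 0.0845).

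MRPL16 was the member leader nearest to a call, and its call depended on the fit. With the replicate number as a block the adjusted p was 0.00784 for CR-1-31-B and 0.0129 for both rocaglates, in a fit that called 1.48% and 2.04% of all features. Without CR-1-31-B library 3 it was 0.0198 for CR-1-31-B and 0.0311 for both, and without silvestrol library 2 it was 0.0497 for CR-1-31-B. Over 18 alternatives the log2 fold change for CR-1-31-B ran from 1.34 to 2.02 and the adjusted p from 0.00493 to 0.316. Relative to the CDS of its own gene, the leader's log2 change for both rocaglates was 0.59, with an unadjusted p of 0.138 in edgeR. The MRPL16 3'UTR held too few counts to enter.

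The MRPL18 leader had 17.5, 21.6 and 25.5 CPM in silvestrol libraries, 17.2, 14.7 and 12.7 CPM in CR-1-31-B libraries and 7.83, 0 and 6.87 CPM in DMSO libraries. MRPL18 is a large-subunit protein whose bacterial counterpart binds the small ribosomal RNA of that subunit. The log2 fold change for both rocaglates was 1.84 ± 0.71 (SE, edgeR adjusted p = 0.335), with 1 DMSO library at 0. The MRPL33 leader had 42.8, 22.7 and 15.3 CPM in silvestrol libraries, 17.2, 36.3 and 22 CPM in CR-1-31-B libraries and 12.7, 8.49 and 2.29 CPM in DMSO libraries, and a log2 fold change of 1.71 ± 0.58 (SE, adjusted p = 0.237). MRPL33 encodes a small protein of the large subunit, and its groups lay close together, with the lowest rocaglate library at 15.3 CPM and the highest DMSO library at 12.7 CPM.

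The MRPL42 leader had the highest fitted change among members, and for silvestrol it rested on library 1. It had 21.1, 2.27 and 2.55 CPM in silvestrol libraries, 17.2, 8.65 and 13.9 CPM in CR-1-31-B libraries and 4.89, 1.06 and 2.29 CPM in DMSO libraries. All 3 CR-1-31-B libraries stood above the highest DMSO library, and the log2 fold change for CR-1-31-B was 2.21 ± 1.03 (SE, edgeR adjusted p = 0.54), from 1.86 to 2.96 over 17 alternatives. In the silvestrol group library 1 alone stood above the DMSO range, and without it the log2 fold change for silvestrol was -0.20 in place of 1.68 ± 1.03 (SE, edgeR adjusted p = 0.748). MRPL42 is a protein of the mitochondrial ribosome with no bacterial counterpart.

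MRPL10 and MRPL12 build the stalk of the large subunit, where translation factors dock, and their leaders are set side by side. The MRPL10 leader had 19.9, 27.3 and 11.5 CPM in silvestrol libraries, 1.98, 13.8 and 4.63 CPM in CR-1-31-B libraries and 6.85, 2.12 and 3.43 CPM in DMSO libraries. All silvestrol libraries were above the DMSO range, and the CR-1-31-B libraries spanned it. The MRPL12 leader had 35.5, 5.69 and 19.1 CPM in silvestrol libraries, 53.6, 31.1 and 32.4 CPM in CR-1-31-B libraries and 43.1, 30.8 and 34.3 CPM in DMSO libraries, with overlap throughout. The log2 fold changes for both rocaglates were 1.44 ± 0.80 for MRPL10 (SE, edgeR adjusted p = 0.587) and -0.34 ± 0.44 for MRPL12 (adjusted p = 0.866), and the difference between these genes was not tested.

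MRPL41, known also to bind the survival protein BCL2, had the most leader counts of all members, 786 over the 9 anti-FLAG libraries. Its leader had 105, 48.9 and 82.8 CPM in silvestrol libraries, 99.2, 153 and 63.7 CPM in CR-1-31-B libraries and 57.7, 24.4 and 44.7 CPM in DMSO libraries. The CR-1-31-B libraries all stood above the DMSO range, and silvestrol library 2 lay inside it. The log2 fold change for both was 1.11 ± 0.38 (SE, edgeR adjusted p = 0.251).

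The other leaders among the 5 best counted showed levels that overlapped between each drug and DMSO. MRPS16 had 86.7, 71.7 and 49.7 CPM after silvestrol, 103, 95.1 and 66.0 CPM after CR-1-31-B and 54.8, 95.5 and 35.5 CPM after DMSO. MRPL3 had 80.1, 27.3 and 29.3 CPM after silvestrol, 97.2, 86.5 and 52.1 CPM after CR-1-31-B and 35.2, 53.1 and 44.7 CPM after DMSO. MRPS5 had 37.3, 61.4 and 26.8 CPM after silvestrol, 52.2, 73.5 and 32.4 CPM after CR-1-31-B and 56.8, 49.9 and 25.2 CPM after DMSO. MRPS16 and MRPS5 are small-subunit proteins shared with bacteria, and their leader levels overlap between treatments.

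One member leader showed the reverse order. The MRPL34 leader had 14.5, 2.27 and 5.10 CPM in silvestrol libraries, 10.6, 9.51 and 3.48 CPM in CR-1-31-B libraries and 23.5, 40.3 and 14.9 CPM in DMSO libraries. All 6 rocaglate libraries lay below all 3 DMSO libraries, as did 0.8% of all leaders. The log2 fold change for both rocaglates was -1.72 ± 0.59 (SE, edgeR adjusted p = 0.247), and it stayed below 0 in the 17 alternatives, from -2.25 to -1.24. MRPL34 encodes one of the smallest large-subunit proteins, and the purine run shown for its start is as long as the one of MRPL42.

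The next lowest leaders were those of MRPL20, MRPL4 and MRPL40. MRPL20 had 4.82, 9.10 and 5.10 CPM after silvestrol, 13.9, 11.2 and 13.9 CPM after CR-1-31-B and 16.6, 11.7 and 13.7 CPM after DMSO, so that all 3 silvestrol libraries and CR-1-31-B library 2 lay below the DMSO libraries. MRPL4 had 44.0, 39.8 and 12.7 CPM after silvestrol, 42.3, 13.0 and 39.4 CPM after CR-1-31-B and 55.8, 56.3 and 20.6 CPM after DMSO. MRPL40 had 25.3, 13.6 and 25.5 CPM after silvestrol, 21.8, 19.9 and 16.2 CPM after CR-1-31-B and 31.3, 23.4 and 22.9 CPM after DMSO, so that all 3 CR-1-31-B libraries and silvestrol library 2 lay below the DMSO libraries. Their log2 fold changes for both rocaglates were -0.63 ± 0.60, -0.46 ± 0.45 and -0.34 ± 0.43 (SE, edgeR adjusted p = 0.802, 0.807 and 0.861). MRPL4 in bacteria reaches with a loop into the peptide tunnel.

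**Figure D4:**
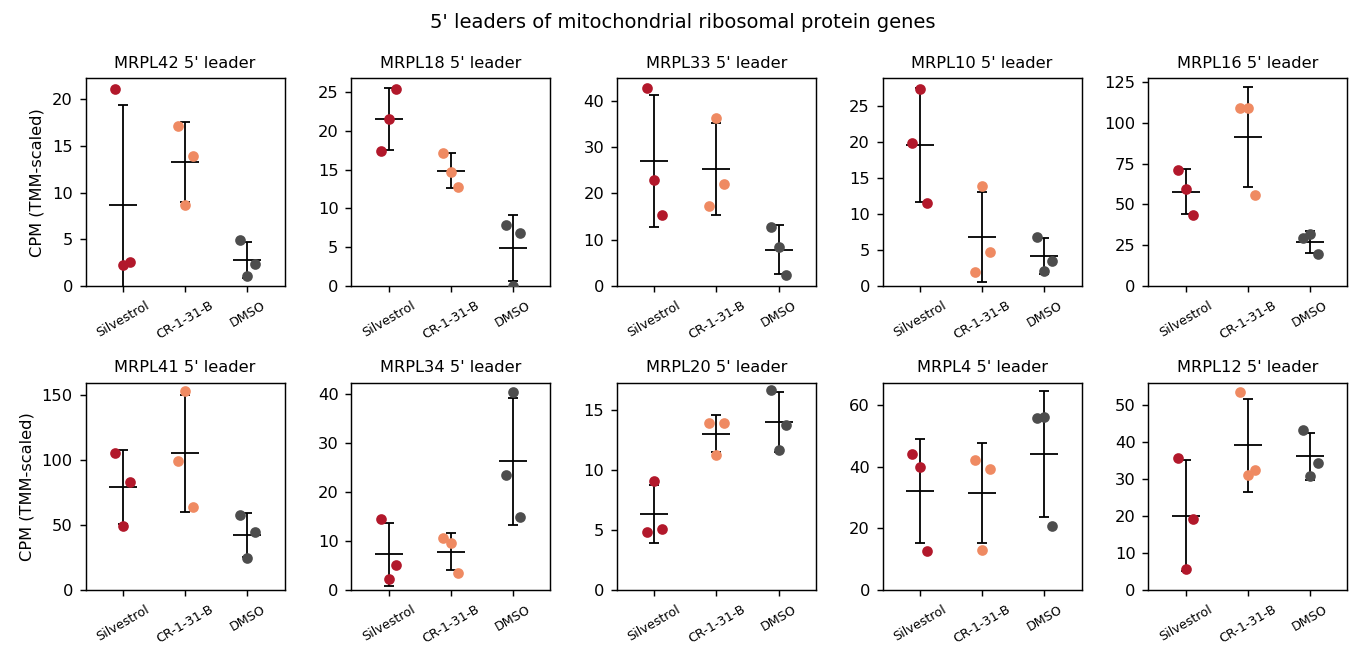
TMM-scaled CPM of 10 mitochondrial ribosomal protein leaders after silvestrol, CR-1-31-B and DMSO, with a point for each library, a bar for the mean and whiskers for 1 SD (n = 3 each). MRPL16, MRPL18 and MRPL33 have all 6 rocaglate points above the DMSO points, and MRPL34 has all 6 below them.

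A gene's own parts share its RNA level, so each leader was also set against the other tested parts of its mRNA with edgeR's diffSpliceDGE. In only 12 members were all 3 parts tested. Of 33 member leaders, 0 passed for silvestrol (0.114% of 6160 leaders passed as higher), 0 for CR-1-31-B (0.0649%) and 0 for both together (0.146%). For both rocaglates 3 of 33 member leaders had an unadjusted p under 0.05, where 481 of 6160 leaders over all genes did. The median relative log2 change of member leaders was 0.33 for silvestrol with 24 above 0, and 0.33 for CR-1-31-B with 22 above 0, where the medians of all leaders were 0.30 and 0.24. For both rocaglates together the member median was 0.21 with 23 above 0, where the median of all leaders was 0.27. Without silvestrol library 1 the silvestrol median was 0.14 (0.27 over all leaders), without DMSO library 3 it was 0.50 (0.28) and the CR-1-31-B median 0.19 (0.22), and with at least 30 counts in each part the silvestrol median was 0.09 with 6 of 12 above 0 (0.35 over all leaders). MRPL42 and MRPL10 had the highest relative changes for both rocaglates, 2.34 (edgeR adjusted p = 0.706) and 1.66 (adjusted p = 0.851), and MRPL34 and MRPL4 the lowest, -0.73 and -0.59 (adjusted p = 1 each). The MRPL42 leader was set against its 3'UTR alone, and those of MRPL10 and MRPL34 against their CDS alone. Cytosolic ribosomal protein leaders had medians of 0.14 and -0.04 for silvestrol and CR-1-31-B.

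Among coding sequences MRPL3 stood highest. MRPL3 is a large-subunit protein whose bacterial counterpart reaches close to the peptidyl transferase centre. Its CDS had 109, 50.04 and 58.6 CPM in silvestrol libraries, 173, 203 and 85.7 CPM in CR-1-31-B libraries and 52.9, 40.3 and 46.9 CPM in DMSO libraries. The CR-1-31-B libraries were all above the DMSO range, whereas silvestrol library 2 lay inside it. The log2 fold change was 0.65 ± 0.40 for silvestrol (SE, edgeR adjusted p = 0.754) and 1.72 ± 0.40 for CR-1-31-B (adjusted p = 0.0663).

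For CR-1-31-B the MRPL3 CDS crossed the threshold in several fits. The adjusted p was 0.0105 with the replicate number as a block, 0.0429 when silvestrol library 2 was left out and 0.0196 when CR-1-31-B library 3 was, and over 18 alternatives it ran from 0.00536 to 0.370 with log2 fold changes of 1.52 to 2.01. MRPS11, a small-subunit protein with a bacterial counterpart, and MRPL46 followed. The MRPS11 CDS had 31.9, 11.4 and 11.5 CPM after silvestrol, 25.8, 32 and 6.95 CPM after CR-1-31-B and 6.85, 10.6 and 12.6 CPM after DMSO, with overlap. The MRPL46 CDS had 29.5, 19.3 and 22.9 CPM after silvestrol, 12.6, 10.4 and 12.7 CPM after CR-1-31-B and 12.7, 5.31 and 6.87 CPM after DMSO, with the silvestrol libraries alone above the DMSO range. Each had a log2 fold change of 1.01 for both rocaglates, with SE 0.59 and 0.56 (edgeR adjusted p = 0.611 and 0.586).

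The 3 lowest coding sequences all belonged to the small subunit. MRPS18B is one of 3 related proteins, with MRPS18A and MRPS18C. Its CDS had 14.5, 14.8 and 14 CPM in silvestrol libraries, 28.4, 8.65 and 12.7 CPM in CR-1-31-B libraries and 37.2, 58.4 and 36.6 CPM in DMSO libraries. All 6 rocaglate libraries were below the DMSO libraries, which was also so for MRPS25 and MRPS27, 3 of 64 members, where 2.92% of all CDS did so. In 0 members were all 6 above, where 2.63% of all CDS were. The log2 fold change for both rocaglates was -1.49 ± 0.43 (SE, edgeR adjusted p = 0.13).

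The MRPS27 CDS, of a pentatricopeptide repeat protein that binds RNA, had 14.5, 7.96 and 15.3 CPM after silvestrol, 23.1, 19.0 and 16.2 CPM after CR-1-31-B and 51.9, 23.4 and 27.5 CPM after DMSO. The highest CR-1-31-B library, at 23.1 CPM, was just under the lowest DMSO library. The MRPS35 CDS had 14.5, 9.10 and 11.5 CPM after silvestrol, 8.60, 1.73 and 5.79 CPM after CR-1-31-B and 21.5, 44.6 and 11.4 CPM after DMSO. DMSO library 3 lay within the silvestrol range and above the CR-1-31-B libraries. Log2 fold changes for both rocaglates were -1.12 ± 0.44 for MRPS27 and -1.67 ± 0.57 for MRPS35 (SE, edgeR adjusted p = 0.344 and 0.245).

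Of the 5 coding sequences with the most counts, MRPL3 and MRPL28 are described elsewhere. The MRPL37 CDS, of a protein found in mitochondrial but not bacterial ribosomes, had 128, 96.7 and 113 CPM after silvestrol, 130, 139 and 136 CPM after CR-1-31-B and 132, 95.5 and 128 CPM after DMSO. The MRPL4 CDS had 156, 76.2 and 104 CPM after silvestrol, 171, 108 and 104 CPM after CR-1-31-B and 103, 79.6 and 85.9 CPM after DMSO. The MRPS34 CDS, of a subunit needed for a stable small subunit, had 80.7, 68.2 and 93.0 CPM after silvestrol, 76.7, 108 and 47.5 CPM after CR-1-31-B and 73.4, 93.4 and 90.5 CPM after DMSO. In MRPL4 the CR-1-31-B libraries lay above the DMSO libraries by a narrow margin, and in MRPL37 and MRPS34 the groups overlapped.

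**Figure D5:**
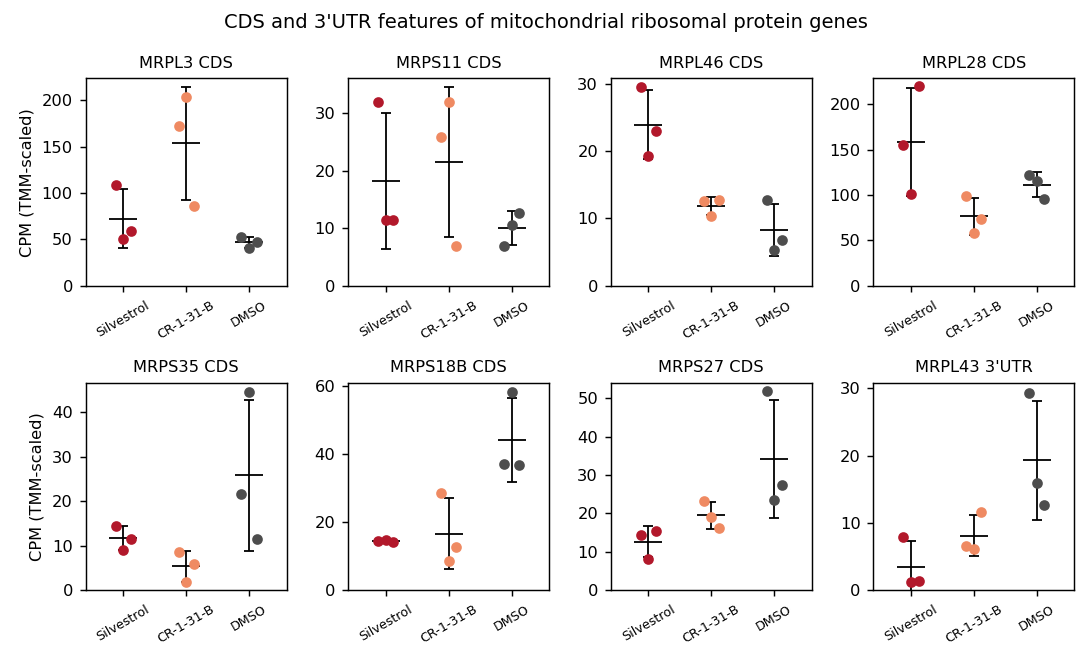
TMM-scaled CPM of 7 coding sequences and the MRPL43 3'UTR after silvestrol, CR-1-31-B and DMSO, with a point for each library, a bar for the mean and whiskers for 1 SD (n = 3 each). MRPL3 is highest after CR-1-31-B, and MRPS18B, MRPS27 and the MRPL43 3'UTR have all 6 rocaglate points below the DMSO points.

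In 3'UTRs all 6 rocaglate libraries lay below the DMSO libraries in 3 of 28 members (MRPL43, MRPL49 and MRPS21), where 3.62% of all 3'UTRs did so, and in 0 members above, where 0.462% did. The MRPL43 3'UTR had 7.83, 1.14 and 1.27 CPM in silvestrol libraries, 6.61, 6.05 and 11.6 CPM in CR-1-31-B libraries and 29.4, 15.9 and 12.6 CPM in DMSO libraries. The MRPS21 3'UTR had 12, 0 and 11.5 CPM after silvestrol, 3.97, 9.51 and 6.95 CPM after CR-1-31-B and 15.7, 26.5 and 17.2 CPM after DMSO. In both genes the gap between rocaglate and DMSO libraries was narrow. Their log2 fold changes for both rocaglates were -1.79 ± 0.68 and -1.41 ± 0.69, and MRPS26 had -1.23 ± 0.81 (SE, edgeR adjusted p = 0.328, 0.509 and 0.67). MRPS11, MRPL35 and MRPL20 had the highest 3'UTR changes, 0.22, 0.21 and 0.13 (edgeR adjusted p = 0.928, 0.942 and 0.987).

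The best-counted 3'UTR was that of MRPS25, a small-subunit protein without a bacterial counterpart, with 115, 119 and 182 CPM after silvestrol, 128, 108 and 231 CPM after CR-1-31-B and 162, 126 and 229 CPM after DMSO. Library 3 was the highest of each treatment, and the groups overlapped. The MRPS16 3'UTR had 42.8, 52.3 and 48.4 CPM after silvestrol, 43.0, 38.9 and 69.5 CPM after CR-1-31-B and 54.8, 19.1 and 75.6 CPM after DMSO. The 3'UTRs of MRPL19, MRPL30 and MRPL42 overlapped between treatments as well.

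CR-1-31-B and silvestrol were compared directly at the same dose and time, as 1 pair of compounds. No member feature passed, and none of the 24713 features did (0%). With the replicate block 0 members and 0.00405% of all features passed. The 4 member features named here were picked after their values were seen, from those with an unadjusted p under 0.05 in edgeR, of which there were 5. They were 1 of 35 leaders, lower after CR-1-31-B, and 3 higher and 1 lower of 64 CDS. Over all genes 87 of 7122 leaders were higher and 153 lower at that p. The same was so for 157 and 52 of 8413 CDS, and for 52 and 63 of 6712 3'UTRs. The MRPL28 CDS had 98.5, 58.0 and 74.2 CPM in CR-1-31-B libraries against 155, 101 and 220 CPM in silvestrol libraries, a log2 difference of -1.04 with a 95% interval of -1.79 to -0.29. The MRPL3 CDS was higher by 1.07 (interval 0.26 to 1.88) and the MRPS22 CDS by 1.42 (interval 0.23 to 2.6) after CR-1-31-B, and the MRPS25 leader was lower by a log2 difference of -1.002 (interval -1.91 to -0.10). The adjusted p of each was 0.9998 in edgeR.

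For leaders described above the intervals of the difference were wide. The log2 difference between CR-1-31-B and silvestrol was 0.65 (interval -0.15 to 1.45) for MRPL16, -0.51 (interval -1.96 to 0.94) for MRPL18, -0.13 (interval -1.32 to 1.07) for MRPL33, and 0.06 (interval -1.49 to 1.60) for MRPL34. For MRPL10 it was -1.52 (interval -3.23 to 0.20). These intervals take in no difference and also differences of more than 2-fold, so they do not show that the compounds act alike on these mRNAs.

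Other genes of mitochondrial translation were counted from lists of mitoribosomal proteins under other symbols (6 genes, 3 leaders tested), mitochondrial translation factors (16 genes, 10 leaders tested) and factors of mitoribosome assembly and ribosomal RNA modification (28 genes, 8 leaders tested). None of their features passed in any contrast with DMSO. Median leader log2 fold changes for both rocaglates were 0.77, 0.15 and -0.32 in that order of lists. Of the leaders tested, 3 of 3, 5 of 10 and 2 of 8 lay above 0. Over all leaders the median was 0.36, with 69.8% above 0. The highest was that of MRM1, which methylates mitochondrial ribosomal RNA, with 15.1, 12.5 and 15.3 CPM after silvestrol, 19.8, 6.92 and 13.9 CPM after CR-1-31-B and 6.85, 0 and 3.43 CPM after DMSO.

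DHX30, an RNA helicase needed for mitoribosome assembly, had 36.1, 9.10 and 37.0 CPM after silvestrol, 31.7, 41.5 and 26.6 CPM after CR-1-31-B and 14.7, 7.43 and 5.72 CPM after DMSO. The lowest leader was that of MTRF1L, the mitochondrial release factor, with 17.5, 17.1 and 5.10 CPM after silvestrol, 13.9, 8.65 and 15.1 CPM after CR-1-31-B and 21.5, 50.9 and 25.2 CPM after DMSO. In MTRF1L all rocaglate libraries lay below the DMSO libraries, and in DHX30 silvestrol library 2 lay inside the DMSO range. The log2 fold changes for both rocaglates were 1.97 ± 0.82 for MRM1, 1.68 ± 0.54 for DHX30 and -1.32 ± 0.48 for MTRF1L (SE, edgeR adjusted p = 0.391, 0.194 and 0.3).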

How the data were processed

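Per the labels, libraries were made from HEK 293T cells crosslinked at 254 nm (400 mJ/cm2). The deposited values are raw read counts per gene symbol and RNA class, 1 file per library, with no normalization by the authors. The submitters' processing notes name cutadapt and Bowtie 1.1, with no role stated. Genome build, annotation, strand, duplicate removal and the rule for shared reads are not given in the sources used here, so genes with pseudogene copies, overlapping genes and antisense genes are uncertain. The 1 blank line of each file was left out.

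The 9 anti-FLAG libraries were fitted together in edgeR 4.0.16 (R 4.3.3) with filterByExpr by group, TMM factors, quasi-likelihood tests and Benjamini-Hochberg adjustment over 24713 features, a feature being a gene in 1 class. The threshold was an adjusted p of 0.05. Leaders were set against their gene's other parts that passed the filter with diffSpliceDGE. Sums, shares and DMSO over input use all counts of a library, and a count of 0 or under the floor of 3 counts in the input was read as 3 counts when counting 2-fold differences. Ratios over few input counts carry exact 95% Poisson intervals of the input count. Both intervals and floors concern counting error alone. The script was tested on simulated data. Alternatives were DESeq2 1.42.0, limma 3.58.1 voom, other scalings and filters, and leaving out each library.

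The numbers 1 to 3 were taken as pairs, since all 9 same-number pairs of libraries correlated above 0.1 in their deviations from group means (0.102 to 0.263, other pairs at most 0.0163). That comes from the data, not from the labels. The main fit held no replicate term, so its SEs, intervals and p-values do not use the pairs, which enter only as the block. The block is given beside a result where it changes a call.

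Named members were the 5 highest and lowest leaders, the 3 highest and lowest CDS and 3'UTRs for both rocaglates against DMSO, the 5 best counted per class, the 3 highest and lowest leaders and CDS by DMSO over input, and the extremes of the within-gene comparison. The membership rule reads symbols alone, but this gene family, the gene lists and the naming rules were picked with earlier results of these data known.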

Additional observations from a re-analysis of the deposited data

Results flagged for a closer look

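Counts outside the 3 mRNA parts were seen for 17 members in a class named transcript, which enters the report only in the members' share of all counts and in library totals. For 2 of them every DMSO library was above both the input and the floor of 3 input counts. MRPL18 averaged 10.24 ± 3.389 CPM there in DMSO libraries (SD, n = 3), against 2.735 CPM (6 counts) in the input. Rocaglate libraries averaged 8.534 ± 5.2 CPM after silvestrol and 11.77 ± 10.49 CPM after CR-1-31-B (SD, n = 3 each), a range that includes the DMSO mean. MRPL9 averaged 3.192 ± 0.9284 CPM in DMSO libraries (SD, n = 3) and had 0 counts in the input, at least 2.334-fold higher than the floor of 3 counts (1.368 CPM). After silvestrol it averaged 0.3694 ± 0.6398 CPM and after CR-1-31-B 0.9889 ± 1.215 CPM (SD, n = 3 each). What reads this class holds was not given in the sources used here.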

How the results depend on the processing

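Of 1879 alternative values for 132 results, 1820 counted as the same, 16 passed the threshold, 32 moved and 11 reversed. Direction and side of the threshold were the measure for the 1230 fold changes alone, of which 1203 kept both. Sums, shares and ratios over input counted as the same within 1 SD of the main value. Numbers of features past 2-fold over input did so within a fixed fold range. Counts of called members went to 1, in place of 0, for CR-1-31-B leaders (MRPL16) with no filter, the replicate block or DESeq2, for CR-1-31-B CDS (MRPL3) with those 3 or only the 2 groups, for leaders of both rocaglates with the block or DESeq2, and for CDS of both rocaglates with DESeq2 in each direction (MRPL3 higher, adjusted p = 0.034, and MRPS18B lower, adjusted p = 0.0444). Leaving out a library gave 0 to 1 for the first 3 of these, through silvestrol library 2 or CR-1-31-B library 3. Apart from the block, the share of all features called in these alternative fits is not given here. The replicate block (MRPL16 adjusted p = 0.00784 for CR-1-31-B and 0.0129 for both, MRPL3 CDS 0.0105 for CR-1-31-B) changed no other call of a named member.

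With leader, CDS and 3'UTR counts alone as the total, silvestrol 3'UTRs summed to 833 CPM, DMSO CDS to 2654 CPM (input 1683 CPM) and DMSO 3'UTRs to 1058 CPM (input 1265 CPM). 12 CDS, 0 3'UTRs higher and 2 3'UTRs lower then passed 2-fold over input. Over all genes 289 of 12413 CDS were higher, and of 11175 3'UTRs 133 were higher and 675 lower. Without MRPS25, silvestrol 3'UTRs summed to 549 CPM. Leaving out a DMSO library gave 20 to 30 CDS higher, 0 to 1 lower, and 2 to 6 3'UTRs higher and 0 to 2 lower. Over all genes it gave 943 to 1178 CDS higher and 724 to 850 lower, of 11832 to 11950. For 3'UTRs over all genes it gave 653 to 910 higher and 427 to 597 lower, of 10500 to 10681. Among these 132 results, signs changed on leaving out a library for 3'UTRs of MRPL20 (-0.55 to 1.23), MRPL35 (-0.13 to 0.70) and MRPS11 (-0.0251 to 0.62), for CR-1-31-B leaders of MRPL10 (-0.36 to 1.31), MRPL12 (-0.19 to 0.32, and -0.27 with TMM within class) and MRPL20 (-0.19 to 0.0815), and for the MRPL42 leader after silvestrol (-0.20 to 2.45). The causes were not tested. Leaders with few counts limit precision.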
